A study of Mus musculus with 10 samples.

Results

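Transcripts of 31 genes of the interferon response and of antigen processing were followed in mouse pancreatic islets, the clusters of hormone-secreting cells of the pancreas. The members were taken by symbol, from a list of interferon signalling, interferon-induced and antigen processing genes that left out the RNA sensor gene Ifih1. All 31 were found among the 24475 genes of the table. The islets came from C57BL/6 mice in 10 libraries. In 5 libraries, replicates 1 to 5, mice had received REGN1193, which binds and blocks GCGR, the receptor for glucagon. In the other 5, replicates 6 to 10, they had received an isotype control antibody. Age, sex, dose, duration and number of animals per library are not given in the labels. Blocking this receptor is the study's way to make alpha cells multiply. Values are RPKM, read counts scaled to transcript length and library depth, so levels of different genes can be compared only roughly.

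Interferons are secreted proteins that warn cells of infection. Cytosolic sensors such as RIG-I recognise viral RNA and signal through the adaptor MAVS to the factors IRF3 and IRF7, which switch on type I interferon genes. Secreted interferon binds its receptor and activates factors, among them STAT2 and IRF9, that bind interferon-stimulated response elements (ISRE) in the promoters of antiviral genes. Interferon gamma acts through gamma-activated sites (GAS) and induces IRF1, guanylate-binding proteins and the antigen processing machinery. In islets this pathway is best known from beta cells in type 1 diabetes, where an interferon signature and high MHC class I are described.

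Of the 31 members, 25 had an entry in the RefSeq promoter table (GRCm38.p6, from 250 bases before to 50 bases after each start). An ISRE core (GAAA, any 2 bases, GAAA, or TTTC, any 2 bases, TTTC on the other strand) was found in 12 of these 25 genes (48.0%), against 3.99% of the 27025 genes in the table and 3.44% of its 32851 promoters. The GAS form TTCNNNGAA, which reads the same on both strands, was found in 7 of the 25 (28.0%) and in 9.55% of all genes (8.3% of promoters), and 3 members held both. A match describes letters in a window and is no evidence of binding. The members were chosen as interferon and antigen processing genes, so their excess over all genes is no independent result. The following stretches show how these letters lie in members described below, 5′ to 3′ on the gene's strand, with each match in capitals. Isg15 has 3 overlapping ISRE matches and Ifit1 has 2 separate ones, while in Bst2 a pair of ISRE matches overlaps a GAS match (not capitalised apart) at its first bases. In B2m and Gbp2 a single ISRE match lies upstream, and Irf1 and Psmb8 carry a GAS match.
Isg15: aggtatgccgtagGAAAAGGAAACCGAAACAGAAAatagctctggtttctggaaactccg
Ifit1: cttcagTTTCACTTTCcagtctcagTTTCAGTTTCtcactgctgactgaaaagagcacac
Bst2: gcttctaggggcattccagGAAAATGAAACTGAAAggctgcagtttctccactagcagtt
B2m: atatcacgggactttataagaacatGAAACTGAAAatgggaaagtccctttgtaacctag
Gbp2: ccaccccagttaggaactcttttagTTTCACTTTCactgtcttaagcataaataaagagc
Irf1: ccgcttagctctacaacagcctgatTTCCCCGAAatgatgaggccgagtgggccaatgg
Psmb8: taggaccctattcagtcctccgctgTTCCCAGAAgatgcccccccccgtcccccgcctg
In GRCm38.p6 these lie at chr4:156200850-156200909 (minus strand) for Isg15, chr19:34640779-34640838 for Ifit1, chr8:71537562-71537621 (minus strand) for Bst2 and chr2:122147523-122147582 for B2m. The Gbp2 stretch is chr3:142620579-142620638, that of Irf1 chr11:53769899-53769957 and that of Psmb8 chr17:34198073-34198131, all on the plus strand like Ifit1 and B2m.

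The labelled tissue was checked against its markers: beta, alpha and delta cell genes were abundant in every library, and exocrine (acinar) markers were present too. The groups differ in islet cell markers. The 7 alpha cell markers summed to between 55138 and 84245 RPKM under the antibody and between 10176 and 18164 RPKM under the isotype control (exact permutation p = 0.0079). The 7 beta cell markers summed to between 198108 and 355361 against between 297355 and 471122 RPKM (exact permutation p = 0.0476), and the 3 delta cell markers to between 3698 and 9709 against between 2046 and 4968 RPKM (exact permutation p = 0.0397). The 10 acinar markers summed to between 3871 and 12157 against between 3022 and 17068 RPKM (exact permutation p = 0.238), with all 10 folds below 0. These 4 p-values are not adjusted. The alpha sum came mainly from Gcg, the beta sum from Ins1, Ins2 and Iapp, and the delta sum from Sst. Taken singly, all 7 alpha markers were higher under the antibody without overlap, where 1.14% of all genes were. All 7 beta folds were below 0 and all 3 delta folds above 0. Islet cell content and antibody cannot be told apart in any member described here. Estimated depth, taken from the steps of low values, was 12.2 to 17.8 megareads, and 0.5 RPKM over 2 kb is then 12.2 to 17.8 reads. Immune cells were in the preparations too. All 14 macrophage markers were above 0 in every library, with a summed level from 96.2 to 827 RPKM under the antibody and from 138 to 705 RPKM under the isotype control. The libraries with the most were antibody replicate 2 (827 RPKM) and isotype replicate 8 (705 RPKM), of which Lyz2 alone gave 541 and 441 RPKM. The 13 lymphocyte markers summed to between 8.34 and 68.4 RPKM and between 7.10 and 30.3 RPKM, and up to 2 of them were at 0 in a library. Antibody replicate 5 held the 68.4 RPKM, and the next highest antibody library had 15.8 RPKM. Cd79a alone gave 31.6 of the 68.4 RPKM, and 20.7 of the 30.3 RPKM in isotype replicate 6. Of 5 plasmacytoid dendritic cell markers, the defining one, Siglech, was at or below 0.0564 RPKM in every library; their sum of 138 to 587 RPKM came mainly from Klk1 and Cox6a2. In bulk tissue, fewer cells of a type and less RNA per cell cannot be told apart.

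Basal levels spanned a wide range. B2m, the invariant light chain of MHC class I, was the most abundant member, at 98.6 ± 37.6 RPKM (SD, n = 5) in isotype libraries, above 98.3% of the genes in the table on the mean over all libraries. Irf1 followed at 22.8 ± 1.77 RPKM, then Ifitm3 at 14.2 ± 5.42 RPKM, a membrane protein that blocks entry of enveloped viruses. Averaged over the 10 libraries, 15 members reached 5 RPKM and 4 were below 1 RPKM: Mx1, Mx2, Ifit2 and Ifi44. Ordered by isotype mean, B2m lay above Irf1, Irf1 above Ifitm3 and Stat2 above Tap1 in all isotype libraries, and every other pair of neighbours overlapped. Ifi44, an interferon-induced gene of unclear function, was the lowest at 0.0806 ± 0.0538 and 0.177 ± 0.227 RPKM (SD, n = 5 each). Its isotype mean rested on replicate 6 (0.568 RPKM, about 20.4 reads), while the other isotype libraries had 0.0231 to 0.185 RPKM.

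**Figure D1:**
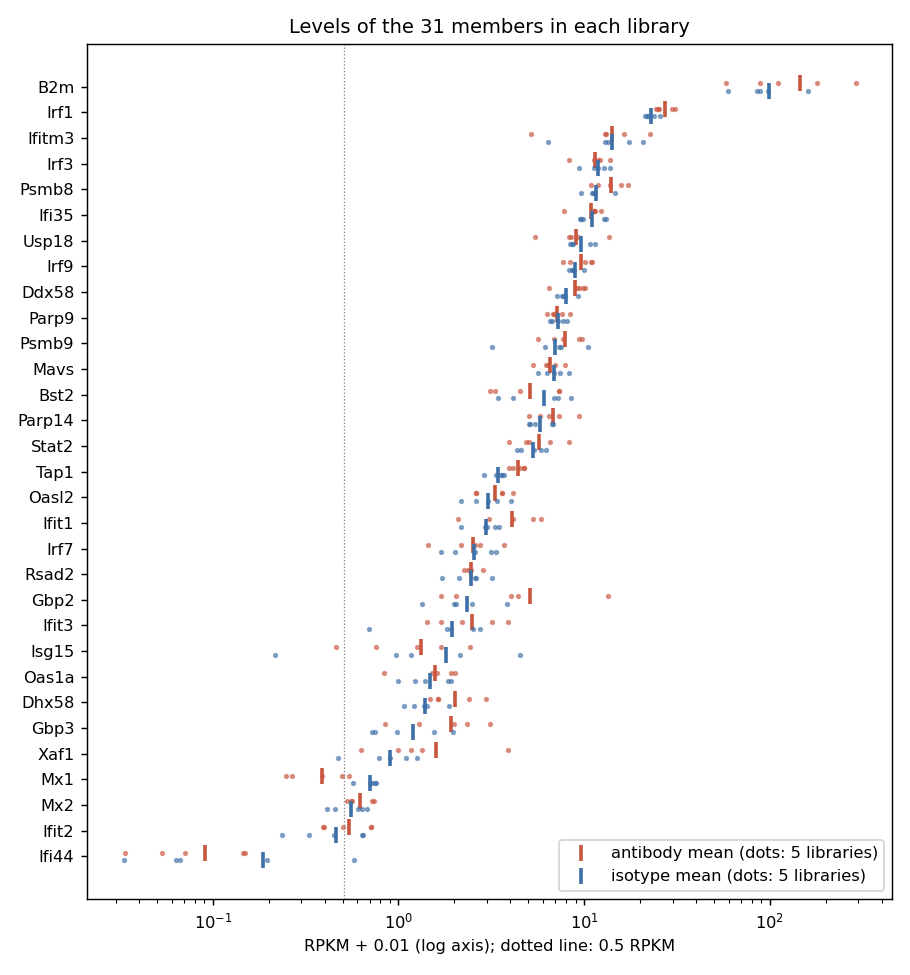
RPKM of the 31 members in each library on a logarithmic axis (RPKM + 0.01), ordered by the isotype mean; dots are libraries (5 per group, antibody red, isotype blue) and bars are group means. B2m stands highest and Ifi44 lowest, and the dots of both groups overlap for all members but Tap1 and Mx1.

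No member passed the threshold between antibody and isotype libraries. Of the 31, 29 averaged 0.5 RPKM or more and were tested, while Ifit2 and Ifi44 were below that. With limma, 0 of 29 members had an adjusted p under 0.05 over all 13450 tested genes, where 0.409% of all genes did; the lowest adjusted p was 0.448. At an unadjusted p under 0.05, 2 members were higher (Tap1 and Irf1), where 2.84% of all genes were, and 1 was lower (Mx1), where 4.18% were. The groups did not overlap in 1 member on the high side, Tap1 (1.14% of all genes), and in 1 on the low side, Mx1 (0.84%). Counts of 2 and 1 of 29 are too small to read as a result about the list.

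The intervals show which changes the data can bound. The 95% interval of the log2 fold change lay within a 2-fold change either way for 24 of 29 tested members, and within 1.5-fold for 17. The exceptions to the former were Gbp2, Gbp3, Xaf1, Isg15 and B2m. Fold changes and their intervals are on the log2(RPKM + 0.5) scale, which understates the change of low genes. The counts of 24 and 17 were taken on this scale only. With 0.1 added in place of 0.5, the log2 difference of Mx1 was -0.77 (SE 0.28), against -0.45 (SE 0.16). Fold changes lay above 0 for 19 members and below 0 for 10, with a median of 0.10. Over all tested genes, 33.5% lay above 0 and the median was -0.07. That balance moves with scaling: median centring put 25 of 29 members and 53.2% of all genes above 0. Quantile normalization gave 25 members and 47.6%, and trimmed mean scaling 24 members and 48.5%. The members' median was 0.18 with median centring (all genes 0.01) or quantile normalization, and ran from 0.06 to 0.19 with 1 library left out, lowest without isotype replicate 10 and highest without antibody replicate 4. Over all genes, 382 were higher and 562 lower at an unadjusted p under 0.05, whereas median centring gave 584 higher and 301 lower.

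**Figure D2:**
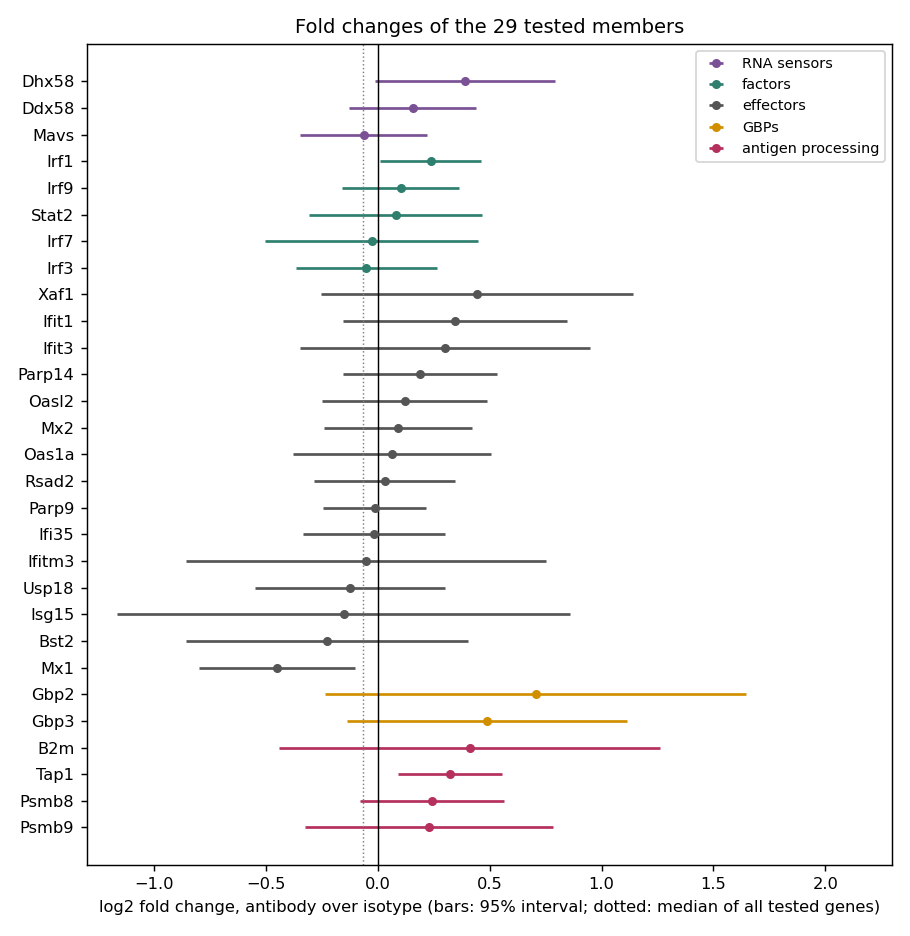
Log2 fold change (antibody over isotype) of the 29 tested members with limma's 95% interval, coloured by role; the dotted line is the median of all tested genes (-0.07). The intervals of Tap1, Irf1 and Mx1 leave out 0, and those of Gbp2, Isg15 and B2m are the widest.

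Among RNA sensors, Ddx58 encodes RIG-I. It stood at 9.36, 10.1, 9.15, 6.43 and 9.80 RPKM in antibody replicates 1 to 5 and at 7.68, 7.85, 7.63, 7.17 and 9.31 RPKM in isotype replicates 6 to 10. Antibody replicate 4 was the lowest of all libraries and the other antibody libraries were at or near the top, so the groups overlapped. On the log2 scale the difference was 0.16 (SE 0.13, limma adjusted p = 0.863), and 0.27 without antibody replicate 4 (limma adjusted p = 0.526; 0.329 to 1.0 over 23 alternatives). Dhx58 encodes LGP2, a relative of RIG-I that modulates its signalling, and was at 1.62, 2.94, 2.37, 1.61 and 1.46 RPKM against 1.86, 1.20, 1.37, 1.42 and 1.06 RPKM, again overlapping. Mavs, the mitochondrial adaptor through which RIG-I signals, was at 6.55 ± 0.960 against 6.87 ± 1.01 RPKM (SD, n = 5 each).

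Of the 5 transcription factor genes, Irf1 had the smallest p. IRF1 drives MHC class I and guanylate-binding protein genes downstream of interferon gamma. Irf1 was at 24.3, 25.3, 29.8, 25.1 and 30.9 RPKM under the antibody and at 25.5, 21.7, 21.3, 22.0 and 23.8 RPKM under the isotype control. Isotype replicate 6 reached into the antibody range, and the other 4 isotype libraries lay below all antibody libraries. On the log2 scale the difference was 0.24 (SE 0.10, limma adjusted p = 0.685; two-sided exact permutation p = 0.0317 for this gene alone, 1 of 29 such tests). Interferon regulatory factor 3, which starts the response and is itself not induced, was at 11.5 ± 1.98 against 11.8 ± 1.68 RPKM (SD, n = 5 each). Irf7, its interferon-induced partner, was at 2.52 ± 0.819 against 2.55 ± 0.713 RPKM. The remaining pair acts in the complex that binds ISREs: Stat2 was at 5.72 ± 1.69 against 5.27 ± 0.801 RPKM and Irf9 at 9.62 ± 1.53 against 8.86 ± 0.639 RPKM.

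Antiviral effectors made up 17 members, 15 of them tested, with 8 folds above and 7 below 0 and a median of 0.03. Of the 7 below 0, Mx1 was the only one whose groups did not overlap. It encodes a dynamin-like GTPase that traps influenza virus components, and C57BL/6 mice are known to carry a defective allele. Mx1 was at 0.376, 0.487, 0.256, 0.236 and 0.530 RPKM in antibody libraries and at 0.694, 0.747, 0.738, 0.706 and 0.560 RPKM in isotype libraries. Every antibody library lay below every isotype library, although antibody replicate 5 and isotype replicate 10 nearly met. On the log2 scale the difference was -0.45 (SE 0.16, limma adjusted p = 0.533). The exact permutation p was 0.00794, 1 of 29 such tests and the lowest possible with these group sizes. Groups without overlap always give it. The RPKM values of Mx1 rest on an estimated 9.1 to 28.9 reads per library. Adding 0.1 or 1 to the RPKM in place of 0.5 gave Mx1 a log2 difference of -0.77 or -0.30. Its neighbour Mx2 had means of 0.613 ± 0.101 and 0.547 ± 0.117 RPKM (SD, n = 5 each).

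Unlike Mx1, other common readouts of type I interferon, Isg15, Usp18 and the Ifit genes, had overlapping groups. Isg15, a ubiquitin-like modifier, was at 1.25, 2.41, 0.749, 0.452 and 1.68 RPKM against 4.48, 0.960, 2.14, 1.15 and 0.206 RPKM. Both its highest value (isotype replicate 6) and its lowest (isotype replicate 10) came from isotype libraries. Usp18, the protease that removes ISG15 and damps receptor signalling, was at 9.01 ± 2.92 against 9.57 ± 1.41 RPKM (SD, n = 5 each), well above Isg15 itself in every library. Among the IFIT proteins, which bind foreign RNA, Ifit1 was at 4.08 ± 1.55 against 2.96 ± 0.503 RPKM and Ifit3 at 2.48 ± 1.04 against 1.93 ± 0.798 RPKM. Ifit2, below the filter, was at 0.533 ± 0.159 against 0.449 ± 0.183 RPKM. Ifit3 has a near-identical copy in the mouse genome, and reads may have been divided between them.

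Rsad2, which encodes the antiviral radical SAM enzyme viperin, was among the closest between groups at 2.46 ± 0.222 against 2.44 ± 0.559 RPKM (SD, n = 5 each). The oligoadenylate synthetase Oas1a, which activates RNase L, was at 1.56 ± 0.462 against 1.47 ± 0.403 RPKM and its relative Oasl2 at 3.32 ± 0.675 against 3.03 ± 0.715 RPKM. Oas1a belongs to a family of close copies, so its reads are uncertain as a single gene. Parp9 and Parp14, ADP-ribosyltransferase family members of the interferon response, were at 7.16 ± 0.801 against 7.23 ± 0.630 RPKM and 6.78 ± 1.65 against 5.81 ± 0.863 RPKM. Ifi35 was at 10.8 ± 1.77 against 11.0 ± 1.79 RPKM. Xaf1, a pro-apoptotic interferon target, was at 3.87 RPKM in antibody replicate 1, while the other 9 libraries had 0.465 to 1.33 RPKM.

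Both membrane effectors varied widely within each group. Ifitm3 was at 16.4, 22.7, 12.9, 5.16 and 13.1 RPKM under the antibody and at 13.4, 12.9, 20.8, 6.36 and 17.4 RPKM under the isotype control. Its highest values were in antibody replicate 2 and isotype replicate 8, the libraries with the highest macrophage marker sums. Its lowest was in antibody replicate 4, which had the lowest macrophage sum. The sums of 8 mesenchymal markers, such as Col1a1, were extreme in the same libraries. They were 176 RPKM in antibody replicate 2, 167 RPKM in isotype replicate 8 and, as the lowest, 14.5 RPKM in antibody replicate 4. On the log2 scale the Ifitm3 difference was -0.05 (SE 0.37, limma adjusted p = 0.991), and its sign turned in 10 of 23 alternative settings. Bst2, or tetherin, which holds budding virions at the cell surface, had means of 5.11 ± 2.09 and 6.03 ± 2.18 RPKM (SD, n = 5 each).

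**Figure D3:**
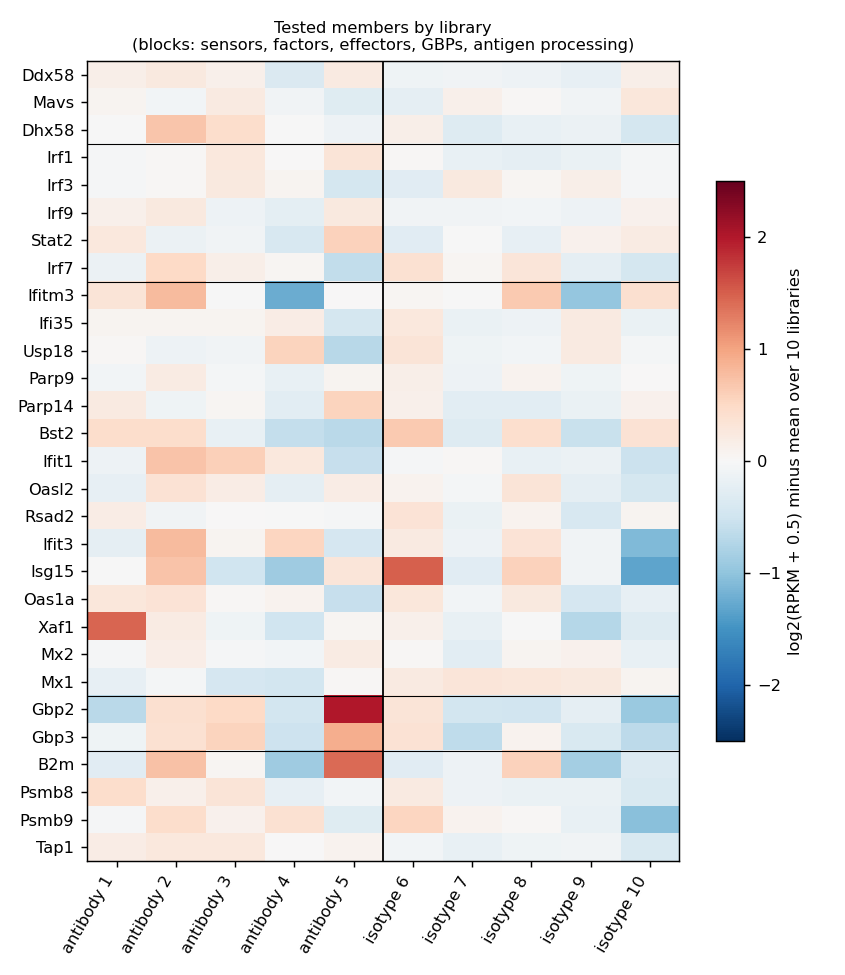
Log2(RPKM + 0.5) of each tested member minus its mean over the 10 libraries, antibody replicates 1 to 5 left of the line and isotype replicates 6 to 10 right of it; rows are grouped by role. Gbp2 and B2m in antibody replicate 5, Xaf1 in antibody replicate 1 and Isg15 in isotype replicate 6 are the deepest reds, and no block of rows changes colour at the line.

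Some libraries were high or low for many members, and whether members moved together was not tested. Isotype replicate 6 had the highest value of its group for 17 of 29 tested members. Antibody replicate 4 had the lowest value of its group for 15. Antibody replicate 2 had the highest value of the 10 libraries for 10 of 29 tested members, among them Ifit1, Ifit3, Irf7, Dhx58 and Oasl2. Antibody replicate 5 had the highest value for 7 (B2m, Gbp2, Gbp3, Irf1, Stat2, Parp14 and Mx2) and the lowest for 8 (Ifit1, Irf3, Irf7, Mavs, Usp18, Oas1a, Bst2 and Ifi35). Isotype replicate 10 had the lowest value for 9 members. Averaged over the 29 members, the log2 level was 2.19 to 2.67 under the antibody and 2.13 to 2.55 under the isotype control, which overlap.

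Guanylate-binding proteins are interferon gamma-induced GTPases that attack the membranes around intracellular pathogens. Gbp2 was at 1.68, 4.05, 4.37, 2.03 and 13.4 RPKM in antibody libraries and at 3.81, 2.04, 1.97, 2.49 and 1.33 RPKM in isotype libraries. Antibody replicate 5 was far above all others, and 2 antibody libraries lay within the lower part of the isotype range. On the log2 scale the difference was 0.70 (SE 0.43, limma adjusted p = 0.805), and without antibody replicate 5 it was 0.29 (limma adjusted p = 0.853; 0.28 to 1.0 over 22 alternatives). Gbp3 was at 1.91 ± 0.891 against 1.19 ± 0.551 RPKM (SD, n = 5 each), again with its highest value, 3.11 RPKM, in antibody replicate 5.

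Antibody replicate 5 differed from the other libraries in immune transcripts. Interferon gamma itself, Ifng, was at 1.64 RPKM there, about 35.3 reads, against 0.056 RPKM (about 1 read) in antibody replicate 2 and 0 in the other 8 libraries. Cxcl9, a chemokine induced by interferon gamma, was at 16.5 RPKM against 0.141 to 1.52 RPKM elsewhere, and the GTPase gene Iigp1 was at 9.09 RPKM against 0.301 to 3.01 RPKM. These 3 genes were named after their values were seen. The T cell marker Cd3e was at 1.76 RPKM there and at most 0.487 RPKM elsewhere. MHC class II markers summed to 179 RPKM against 27.4 to 98.2 RPKM. The macrophage sum, 180 RPKM, lay within the range of the other libraries. Antibody replicate 5 differed outside immune genes too. It had the lowest beta cell marker sum (198108 RPKM), with the beta marker Iapp at 15961 RPKM against 30511 to 42288 RPKM elsewhere. The part of lymphocytes in the levels of Gbp2, Gbp3 and B2m was not tested.

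**Figure D4:**
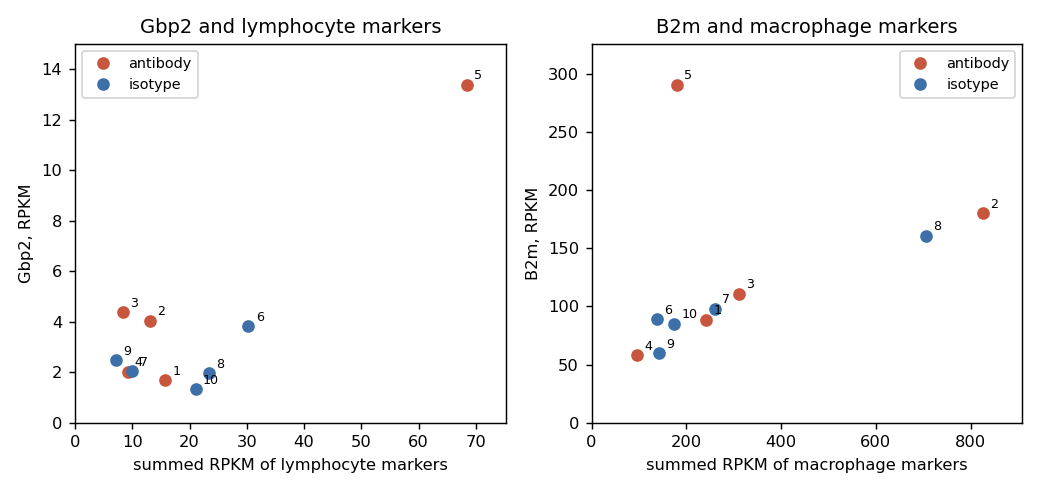
Left, Gbp2 against the summed RPKM of 13 lymphocyte markers; right, B2m against the summed RPKM of 14 macrophage markers; each point is a library, numbered by replicate, antibody red and isotype blue. Antibody replicate 5 stands apart in both panels (Gbp2 13.4 RPKM, B2m 291 RPKM), and among the other 9 libraries the highest B2m values (180.0 and 161 RPKM) are at the highest macrophage sums (827 and 705 RPKM). Mesenchymal marker sums, not plotted, are also highest in these libraries, antibody replicate 2 and isotype replicate 8.

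The 4 antigen processing members all had folds above 0, with a median of 0.28. Tap1 encodes a subunit of the transporter that moves peptides into the endoplasmic reticulum for loading onto MHC class I. It was at 4.49, 4.71, 4.74, 3.91 and 4.11 RPKM under the antibody and at 3.68, 3.36, 3.58, 3.62 and 2.86 RPKM under the isotype control. The groups did not overlap: the lowest antibody library had 3.91 RPKM and the highest isotype library 3.68 RPKM. The means were 4.39 ± 0.369 and 3.42 ± 0.333 RPKM (SD, n = 5 each), a log2 fold change of 0.32 (SE 0.11, 95% interval 0.09 to 0.55). Its p was the smallest of the list, yet it missed the threshold once adjusted over the table (limma adjusted p = 0.448; exact permutation p = 0.00794). The adjusted p ran from 0.0572 with array weights to 0.860 over 22 alternatives, and the fold stayed between 0.27 and 0.40.

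Tap1 lies on chromosome 17 from 34187556 to 34197225, in the MHC region, and Psmb9 runs the other way from 34187330 down to 34182030. The 225 bases between both starts (chr17:34187331-34187555, Tap1 strand) are shown because they lie upstream of both genes. Neither motif form above occurs in them.
Tap1: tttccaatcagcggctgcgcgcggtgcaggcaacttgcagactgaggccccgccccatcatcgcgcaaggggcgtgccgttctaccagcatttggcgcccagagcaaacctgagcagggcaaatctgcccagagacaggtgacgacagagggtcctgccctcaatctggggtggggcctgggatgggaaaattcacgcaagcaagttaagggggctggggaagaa
Psmb9 was at 7.84 ± 1.71 against 6.91 ± 2.62 RPKM (SD, n = 5 each), with overlapping groups and isotype replicates 6 (10.4 RPKM) and 10 (3.18 RPKM) at both ends. Psmb8, on the far side of Tap1, was at 17.2, 13.8, 15.8, 10.8 and 11.9 RPKM against 14.7, 11.5, 11.1, 11.2 and 9.59 RPKM, also overlapping.

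**Figure D5:**
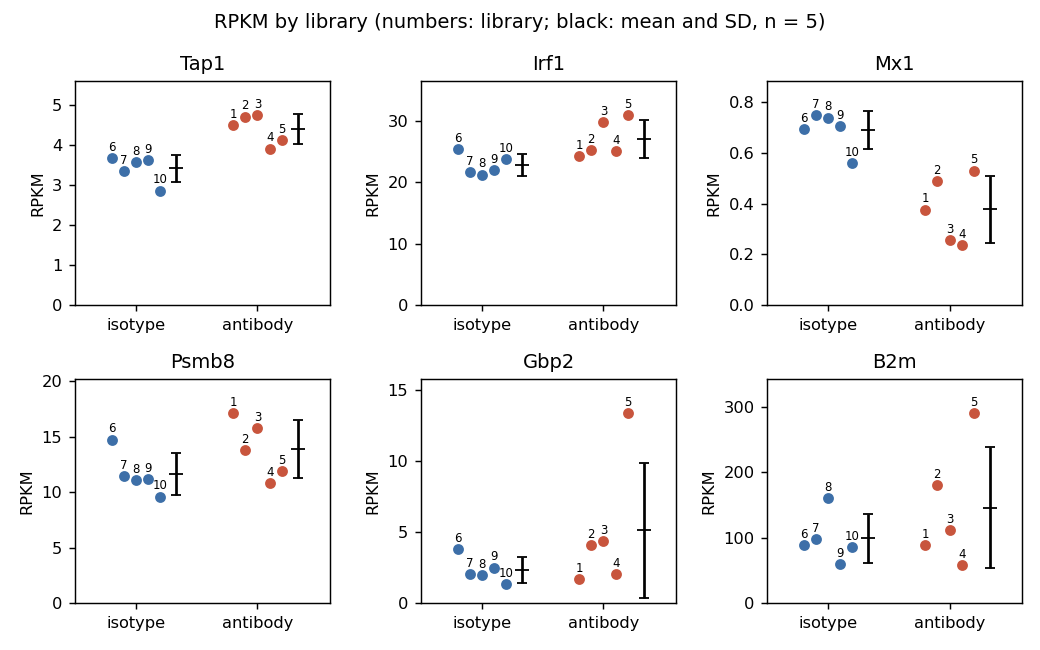
RPKM of Tap1, Irf1, Mx1, Psmb8, Gbp2 and B2m in each library (axes from 0; numbers are replicates; black marks are mean and SD, n = 5). The groups separate for Tap1 and Mx1, meet for Irf1 through isotype replicate 6, and overlap widely for Gbp2 and B2m, where antibody replicate 5 is far above the rest.

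Psmb8 and Psmb9 encode catalytic subunits that replace the constitutive subunits Psmb5 and Psmb6 when the proteasome is remodelled by interferon. Within each library the level of Psmb8 was a mean of 29.1% of that of Psmb5 under the antibody and 19.0% under the isotype control. The log2 ratio was higher by 0.55 under the antibody (exact permutation p = 0.0873, adjusted over both ratios 0.175). Antibody replicate 5 had the highest ratio (-0.91, against -2.29 to -1.94 in the other antibody libraries), and there Psmb5 was at 22.8 RPKM where isotype libraries had 55.6 to 73.5 RPKM. Without it the difference was 0.32 (exact permutation p = 0.175). It was 0.66 without antibody replicate 4 (exact permutation p = 0.0476) and 0.68 without isotype replicate 6 (exact permutation p = 0.0238), neither p adjusted over both ratios. For Psmb9 over Psmb6 the levels were 8.68% and 8.11%, a log2 difference of 0.23 (exact permutation p = 0.540).

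B2m was at 88.5, 180.0, 111, 57.8 and 291 RPKM in antibody libraries and at 88.8, 98.2, 161, 59.7 and 85.3 RPKM in isotype libraries. High values occurred in both groups, in antibody replicates 5 and 2 and isotype replicate 8, and low ones in both, in antibody replicate 4 and isotype replicate 9. On the log2 scale the difference was 0.41 (SE 0.39, limma adjusted p = 0.876), and 0.11 without antibody replicate 5 (limma adjusted p = 0.957; 0.517 to 1.0 over 23 alternatives). It was 0.69 without antibody replicate 4 and 0.61 without isotype replicate 8, against 0.28 without antibody replicate 2 and 0.25 without isotype replicate 9. With the acinar marker level as a covariate it was 0.68, and with the macrophage marker level 0.34 (SE 0.31). The part of macrophages in the B2m and Ifitm3 levels was not tested beyond this, and that of mesenchymal cells was not tested.

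Beyond the members, 99 other genes of the pathway were read from the same fit, 79 of them tested. Again 0 passed over all genes with limma (lowest adjusted p 0.372), and at an unadjusted p under 0.05 7 were higher, where 2.84% of all genes were, and 1 was lower, where 4.18% were. None of the 13 interferon genes listed reached the filter, and apart from Ifng in antibody replicate 5 they were at or below 0.133 RPKM in every library. Receptor and kinase genes were present: Ifnar2, a subunit of the type I receptor, had the smallest p of 12, with means of 23.2 ± 4.73 and 18.1 ± 2.70 RPKM (SD, n = 5 each) and a limma adjusted p of 0.709. Among 14 tested nucleic acid sensing genes it was Zbp1, a sensor of Z-form nucleic acid, at 1.99 ± 0.990 against 0.965 ± 0.616 RPKM.

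Of 36 other tested interferon-induced genes, 26 had folds above 0, with a median of 0.15. Gbp4, a further guanylate-binding protein, had the smallest p, with 1.34, 2.39, 6.55, 0.467 and 4.32 RPKM against 0.480, 0.434, 0.333, 0.784 and 0.700 RPKM. All antibody libraries but replicate 4 lay above all isotype libraries (log2 fold change 1.44, SE 0.44, limma adjusted p = 0.372). Gbp9 (log2 fold change 1.06, limma adjusted p = 0.429) and Gbp6 (0.84, limma adjusted p = 0.766) were also highest in antibody replicate 3. Both were lowest in antibody replicate 4. Gbp5 (0.36) and Gbp7 (0.22) were highest in antibody replicate 5. These further genes were added after their values were seen. For 17 tested antigen processing genes outside the members the median was 0.10, and the proteasome activator subunit Psme1 had the smallest p, at 57.0 ± 8.49 against 48.3 ± 3.11 RPKM (limma adjusted p = 0.766).

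Folds were also set beside the ISRE matches, as a description with no test of the difference. Of 12 tested members with a match, 9 had folds above 0 with a median of 0.12, and 0 had an unadjusted p under 0.05. Of 11 tested members with a promoter entry and no match, 7 had folds above 0, also with a median of 0.12, and 2 had such a p.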

How the data were processed

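Polyadenylated RNA of islets isolated on a Histopaque gradient was made into libraries with the Nextera XT kit, per the labels' protocols; this kit keeps no strand information. The authors deposited 1 table of RPKM values for 24475 genes. The submitters' processing notes name CASAVA 1.8.2, FastQC and the builds GRCm38 and mm10. The aligner, counting software and gene models used are named in none of the sources used here. Among gene identifiers, 24375 matched a RefSeq table of GRCm38.p6, which gave coordinates, and 100 did not.

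The 13450 genes averaging 0.5 RPKM or more were put on the log2(RPKM + 0.5) scale, not rescaled, and fitted with limma 3.58.1 in R 4.3.3 (variance trend, Benjamini-Hochberg over all of them, threshold 0.05), after a test on simulated data. Intervals cover 95% and SEs are limma's. Exact permutation tests were two-sided over 252 assignments. Python 3.11.15 with pandas 2.3.3 and matplotlib 3.10.9 was used.

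Depth was the read number that brought most low values to within 0.1 of whole reads, using 17505 genes with 1 RefSeq-linked transcript length in GENCODE. It is an estimate, so no count model was run. The labels do not say that libraries came from separate animals, and p-values measure only the spread between libraries. Per-library values are given for members with an unadjusted p under 0.05, without overlap, or highest in their role, and for a few more chosen after their values were seen; of each other pathway list, the gene with the smallest p is named. Members and lists were chosen with earlier results of these data known. Alternatives were other pseudocounts, filters, scalings, weights, marker covariates and omitted libraries.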

Additional observations from a re-analysis of the deposited data

Results flagged for a closer look

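In groups of 5 libraries, 66 of which were checked, chance sets about 1 in 20 groups apart, or 3.3, and 5 had 1 library standing off. Ddx58 was at 6.43 RPKM in antibody replicate 4, where the other antibody libraries had 9.15 to 10.1 RPKM. Irf9 was at 9.97 RPKM in isotype replicate 10, against 8.31 to 8.75 RPKM in the other isotype libraries. Mx1 in the same library was at 0.560 RPKM, below the 0.694 to 0.747 RPKM of the others. Ifi35 was at 7.78 RPKM in antibody replicate 5, against 11.3 to 12.4 RPKM. The log2 ratio of Psmb8 to Psmb5 was -0.909 in that library, against -2.29 to -1.94 in the other antibody libraries. The gaps were judged on the log2 scale, where Gbp2 in antibody replicate 5 was not set apart.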

How the results depend on the processing

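In all 23 alternatives 0 members were called higher and 0 lower. The number of members higher at an unadjusted p under 0.05 was 2, and ran from 1 to 6 with 1 library left out (4 without antibody replicate 1, 6 without antibody replicate 4, 5 without isotype replicate 6, and 1 without antibody replicate 3 or isotype replicate 7, 8 or 9). Array weights gave 8 of 29 members, where 746 of all 13450 tested genes were higher and 1227 lower. The ductal covariate gave 1 of 29 members and 515 of 13450 genes. Raising the filter to 5 RPKM gave 1 of 15 members and 146 of 8384 genes. Over all genes, leaving out 1 library gave 292 to 483 higher. Without antibody replicate 1 that count was 369 of 13465 genes, with 30 members tested. Without antibody replicate 4 it was 462 of 13495, and without isotype replicate 6 341 of 13504, again with 30 members tested. The omissions that gave 1 member had 296 to 389 genes higher. The number of members lower was 1, and 0 with the 5 RPKM filter, which leaves out Mx1. The signs of Tap1, Irf1, Mx1, Ddx58, Gbp2 and B2m held wherever they were tested. Ifitm3 changed sign to 0.024 with median centring, 0.019 with quantile normalization, 0.007 with trimmed mean scaling, 0.189 with array weights, 0.037 with the acinar and 0.113 with the ductal covariate, and 0.033 without antibody replicate 5 and isotype replicate 10 together; with 1 library left out it ran from -0.303 to 0.252 (the latter without antibody replicate 4). The log2 ratio of Psmb8 to Psmb5 ran from 0.32 to 0.68 with 1 library left out, and that of Psmb9 to Psmb6 from -0.029 (without isotype replicate 10) to 0.51; the cause was not tested. No paired analysis was possible because the labels give no pairing between antibody and isotype libraries. Members below 1 RPKM rest on few reads: an estimated 9.1 to 28.9 per library for Mx1 and 1.0 to 20.4 for Ifi44, which was not tested.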
